A study of Mus musculus with 12 samples.

Results

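The 10 genes described here are the 2 corticosteroid receptor genes, Nr3c1 and Nr3c2, and 8 genes known to be induced by glucocorticoids in brain: Plin4, Hif3a, Xdh, Fkbp5, Tsc22d3, Sult1a1, Sgk1 and Zbtb16. They were taken by name from the 44760 genes that both deposited count tables hold, and all 10 were found and passed the filter on low counts in every comparison. The genes were selected with the measured differences between nicotine and saline in view, so those differences are given as a description. Counts of genes called are printed for them beside the share over all genes, and support nothing. The libraries came from the hippocampus of male APPswe/PS1dE9 (APP/PS1) mice on a C57BL/6 background (N9B6), which carry mutant human amyloid precursor protein and presenilin 1 and deposit amyloid plaques with age. For 14 days a pump under the skin delivered nicotine hydrogen tartrate, at a dose labelled 48 mg/kg/h, or saline. The 4 groups of 3 libraries were 18-month nicotine, 18-month saline, 7-month nicotine and 7-month saline. All 4 groups carry both transgenes, and no library of mice without them was used here. The labels do not say which animals a library holds, so p-values measure the spread between these libraries.

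Corticosterone, the main glucocorticoid of mice, enters cells and binds the glucocorticoid receptor (Nr3c1) and, with higher affinity, the mineralocorticoid receptor (Nr3c2). The hippocampus is known for high levels of both. Bound receptors move into the nucleus and switch genes on through paired half-sites in DNA, the glucocorticoid response element, and nicotine is known to activate the stress axis that releases corticosterone.

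The response element is shown first because, of the genes searched, only Sgk1 held the full element close to a start. RefSeq promoter windows (assembly GRCm38.p6, 250 bases before to 50 bases after a gene start) were used for 7 of the 10 genes, 14 in all. Windows of Xdh, Zbtb16 and Nr3c1 were not used, so nothing is said of their promoters. Both strands were searched for the full element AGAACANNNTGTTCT, for the looser core GNACANNNTGTNC and for the half-site AGAACA, which both the full element and some core matches contain. The full element was present in 0.00913% of 32851 mouse windows (3 windows), the core in 0.475% and the half-site in 19.0%. At least 1 half-site was found in 5 of the 14 windows used, in 3 of the 7 genes. Of these 7 genes, Sgk1 alone had the full element, in 1 of its 6 windows. Other Sgk1 windows had a half-site at -195 or at -13 and are not printed. Sult1a1 had half-sites at positions -212 and -34 from its start, and 1 of the 3 Tsc22d3 windows had a half-site at -185. The single windows of Plin4, Fkbp5, Hif3a and Nr3c2 had no half-site in these bases, which says nothing of sites farther away. The Plin4 window is printed because this gene had the largest difference between nicotine and saline. Capitals mark the half-sites and, in Sgk1, the whole element.
Sgk1 promoter, chr10:21993640-21993939, plus strand: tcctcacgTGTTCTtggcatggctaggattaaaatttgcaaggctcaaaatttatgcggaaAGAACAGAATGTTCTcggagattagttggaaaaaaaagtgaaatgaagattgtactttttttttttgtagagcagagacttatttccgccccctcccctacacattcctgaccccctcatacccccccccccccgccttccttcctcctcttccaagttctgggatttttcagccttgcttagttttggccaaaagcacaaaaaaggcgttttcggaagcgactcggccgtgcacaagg
Sult1a1 promoter, chr7:126676369-126676668, minus strand: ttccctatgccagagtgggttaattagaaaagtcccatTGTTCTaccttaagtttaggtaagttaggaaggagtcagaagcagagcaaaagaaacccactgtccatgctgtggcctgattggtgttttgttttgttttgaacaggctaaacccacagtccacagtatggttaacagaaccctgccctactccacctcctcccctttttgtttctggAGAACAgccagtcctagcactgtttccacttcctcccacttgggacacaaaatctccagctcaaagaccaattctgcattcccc
Tsc22d3 promoter, chrX:140600473-140600772, minus strand: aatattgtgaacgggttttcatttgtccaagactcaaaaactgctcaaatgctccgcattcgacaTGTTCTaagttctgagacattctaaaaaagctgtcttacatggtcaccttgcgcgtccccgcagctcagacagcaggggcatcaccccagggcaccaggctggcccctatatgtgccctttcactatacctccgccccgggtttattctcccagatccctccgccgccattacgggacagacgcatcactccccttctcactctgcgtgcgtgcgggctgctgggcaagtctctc
Plin4 promoter, chr17:56109733-56110032, minus strand: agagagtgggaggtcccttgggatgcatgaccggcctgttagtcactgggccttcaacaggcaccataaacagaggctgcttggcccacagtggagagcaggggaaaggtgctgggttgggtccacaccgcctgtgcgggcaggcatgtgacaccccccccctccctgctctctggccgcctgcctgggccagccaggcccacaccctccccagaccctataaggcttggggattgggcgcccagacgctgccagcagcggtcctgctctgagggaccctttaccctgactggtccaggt
In the Sgk1 window the full element starts at -189, and another half-site lies at -242. A match is a description of the letters and was not tested for binding.

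Total counts were 21260068 to 23715015 per library at 18 months and 25071195 to 29245972 at 7 months. Levels are given as CPM, which divides a gene's reads by its library's total after TMM scaling over all 12 libraries, and differences as log2 fold changes with a standard error (SE). Markers of hippocampal neurons summed to 601 to 811 CPM in the 12 libraries, with all 7 of them found. Choroid plexus markers, all 6 found, summed to 23.7 to 1510 CPM in 18-month nicotine, 20.2 to 89.7 CPM in 18-month saline, 56.7 to 6130 CPM in 7-month nicotine and 126 to 1610 CPM in 7-month saline, with the highest sum in 7-month nicotine library 1. Pituitary markers summed to 175 CPM in that same library and to 3.84 CPM or less in the other libraries. Transcripts over 5000 nt took 36.0% to 36.9% of the counts at 18 months, 32.5% in 7-month saline library 2 and 23.2% to 24.1% in the other 7-month libraries. For this reason values corrected for transcript length and GC content are given where they move a result. In whole tissue, fewer cells of a type and less RNA per cell cannot be told apart.

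The largest differences were those of the lipid droplet gene Plin4, with a fitted fold of nicotine over saline of 2.55 at 18 months and 7.91 at 7 months. Hif3a and Xdh followed, at 2.19-fold and 1.51-fold at 18 months and 3.87-fold and 3.71-fold at 7 months. Fkbp5, Tsc22d3, Sult1a1 and Zbtb16 were also higher under nicotine at both ages, Tsc22d3 by 1.53-fold at 18 months. Sgk1 was higher under nicotine at 18 months and lower at 7 months, with groups that overlapped at both, and the 2 receptor genes were lower under nicotine at 7 months and level at 18 months.

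**Figure D1:**
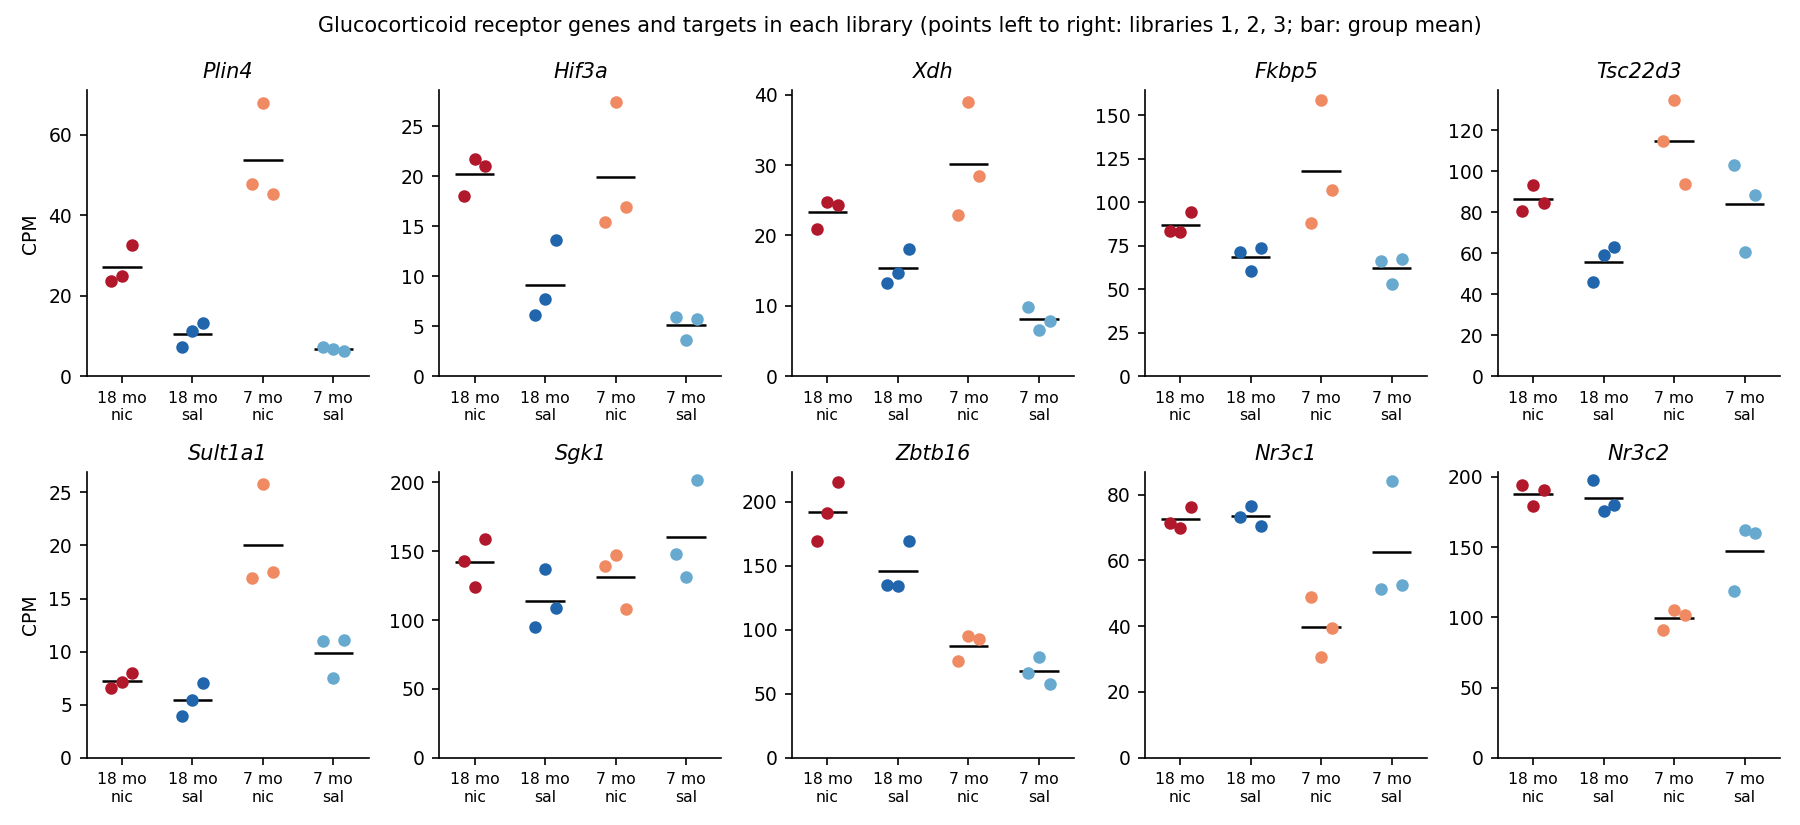
CPM of each gene in each of the 12 libraries (vertical axis from 0, a scale of its own per gene), with the 3 libraries of a group as points and their mean as a bar; nic stands for nicotine and sal for saline. The 18-month nicotine points of Plin4 lie between 23.7 and 32.5 CPM and the 18-month saline points between 7.15 and 13.1 CPM, while the 7-month nicotine points lie between 45.2 and 67.9 CPM and the 7-month saline points between 6.32 and 7.09 CPM.

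Nr3c1, the glucocorticoid receptor gene (chromosome 18, 39410545 to 39519421, minus strand, GRCm38), had 71.3, 69.9 and 76.2 CPM in the 18-month nicotine libraries and 73.2, 76.4 and 70.5 CPM in the 18-month saline libraries. Under nicotine at 7 months it had 48.8, 30.5 and 39.5 CPM, and under saline 51.2, 84.1 and 52.5 CPM. The groups overlapped at 18 months, whereas at 7 months all 3 nicotine libraries lay below all 3 saline libraries, and saline library 2 was far above the other saline libraries. The log2 fold change was -0.03 (SE 0.06) at 18 months and -0.68 (SE 0.25) at 7 months.

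Nr3c2, the mineralocorticoid receptor gene (chromosome 8, 76899442 to 77245012, plus strand), had 194, 179 and 191 CPM in the 18-month nicotine libraries and 198, 176 and 180 CPM in the 18-month saline libraries. The 7-month libraries held 91.0, 105 and 102 CPM under nicotine and 119, 162 and 160 CPM under saline. As for Nr3c1, the groups overlapped at 18 months and did not at 7 months, where nicotine was lower. On the log2 scale nicotine over saline was 0.01 (SE 0.06) at 18 months and -0.58 (SE 0.15) at 7 months. Nr3c2 shares 247 nt of exon with Gm10649 on the other strand, and the counting is not stated to use strand, so reads of the pair cannot be told apart.

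Both receptor transcripts are long, and 7-month saline library 2, with the larger share of long transcripts, held the most Nr3c1 of its group by far. For Nr3c2 it was nearly level with saline library 3, at 162 against 160 CPM. After correction for length and GC content Nr3c1 had 66.6, 43.4 and 55.4 CPM in the 7-month nicotine libraries and 68.8, 80.1 and 71.3 CPM in the 7-month saline libraries. Corrected Nr3c2 had 123, 143 and 137 CPM under nicotine and 156, 165 and 212 CPM under saline at 7 months. The nicotine libraries of both genes stayed below the saline libraries, with a smaller gap in proportion for both. The 7-month means of Nr3c1 were 55.1 CPM under nicotine and 73.4 CPM under saline with correction, against 39.6 and 62.6 CPM without. Those of Nr3c2 were 134 and 178 CPM with correction, against 99.1 and 147 CPM without.

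**Figure D2:**
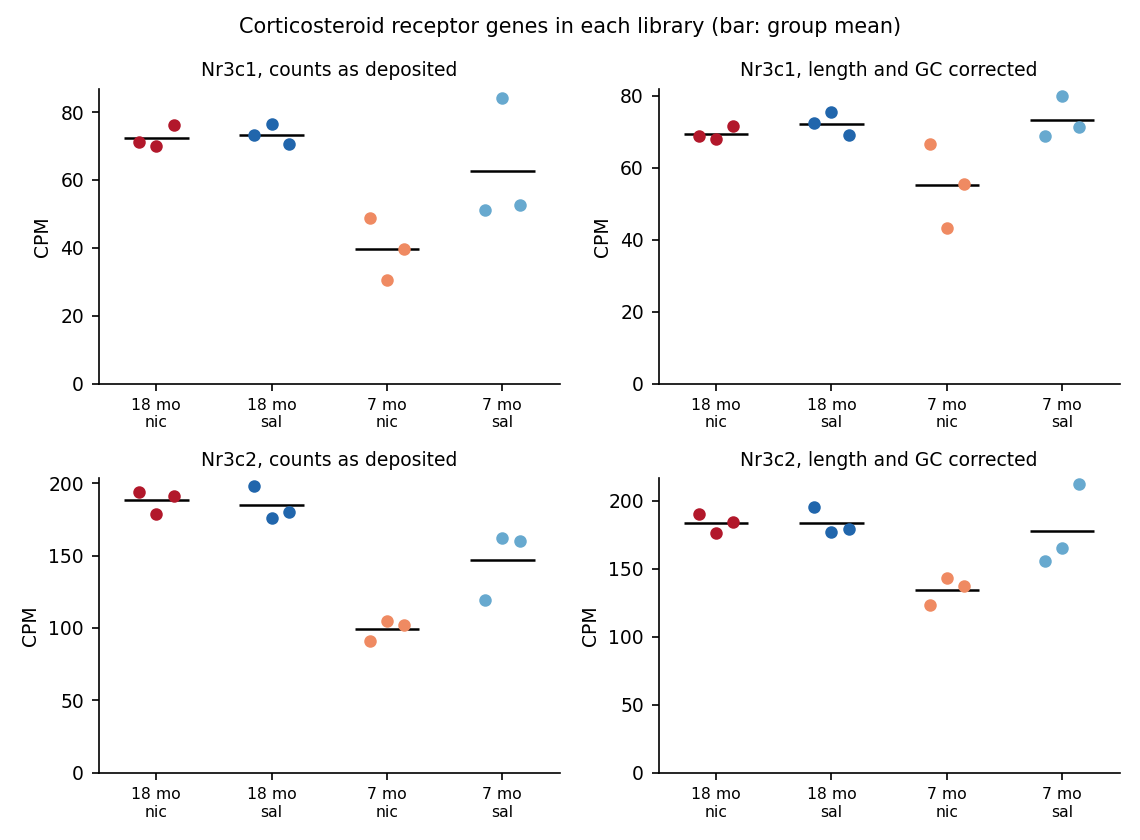
CPM of Nr3c1 (upper row) and Nr3c2 (lower row) in each library, from the counts as deposited (left) and after correction for transcript length and GC content (right); points are libraries 1 to 3 from left to right and bars are group means. With correction, 7-month nicotine library 2 still has the lowest Nr3c1 value of its age, 43.4 CPM, against 68.8 to 80.1 CPM in the 7-month saline libraries.

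Fkbp5 (chromosome 17, 28399094 to 28517527, minus strand) codes for a co-chaperone that lowers the hormone affinity of the glucocorticoid receptor and is itself induced by it. It had 83.6, 82.8 and 94.4 CPM in the 18-month nicotine libraries and 71.1, 60.2 and 73.9 CPM in the 18-month saline libraries. At 7 months it had 87.8, 159 and 107 CPM under nicotine and 65.9, 53.0 and 67.4 CPM under saline. The groups did not overlap at either age, and 7-month nicotine library 2 stood well above the rest. The log2 fold change was 0.33 (SE 0.08) at 18 months and 0.91 (SE 0.22) at 7 months.

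Tsc22d3, also called GILZ (chromosome X, 140539528 to 140600659, minus strand), codes for a leucine zipper protein that carries part of the anti-inflammatory action of glucocorticoids. It had 80.8, 93.3 and 84.7 CPM in the 18-month nicotine libraries and 45.8, 58.9 and 62.8 CPM in the 18-month saline libraries. Under nicotine at 7 months it had 115, 135 and 93.7 CPM, and under saline 103, 60.8 and 88.3 CPM. The groups were separate at 18 months and overlapped at 7 months. On the log2 scale nicotine over saline was 0.61 (SE 0.11) at 18 months and 0.44 (SE 0.21) at 7 months.

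Zbtb16 (chromosome 9, 48654297 to 48836222, minus strand) codes for the zinc finger repressor PLZF, a gene with a strong glucocorticoid response in many tissues. It had 169, 191 and 215 CPM in the 18-month nicotine libraries and 135, 134 and 169 CPM in the 18-month saline libraries. The 7-month libraries held 75.6, 94.7 and 92.5 CPM under nicotine and 66.3, 78.7 and 57.4 CPM under saline. Nicotine library 1 and saline library 3 met at 169 CPM at 18 months, with nicotine just above saline, and the groups overlapped at 7 months. The log2 fold change was 0.38 (SE 0.11) at 18 months and 0.36 (SE 0.16) at 7 months. With correction for length and GC content this turned round, with overlap at 18 months and none at 7 months.

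Sgk1 (chromosome 10, 21882184 to 21999903, plus strand) codes for the serum and glucocorticoid-regulated kinase, which acts on ion channels and transporters. It had 143, 124 and 159 CPM in the 18-month nicotine libraries and 95.3, 137 and 109 CPM in the 18-month saline libraries. At 7 months it had 139, 147 and 108 CPM under nicotine and 148, 131 and 202 CPM under saline. The groups overlapped at both ages, at 7 months with 1 saline library far above the rest. On the log2 scale nicotine over saline was 0.31 (SE 0.14) at 18 months and -0.30 (SE 0.18) at 7 months. Of its relatives, the kinases Sgk2 and Sgk3, Sgk3 had 7.32 ± 0.713 CPM under nicotine and 6.59 ± 0.804 CPM under saline at 18 months and 12.5 ± 1.89 CPM under nicotine and 7.48 ± 0.215 CPM under saline at 7 months (SD, n = 3 libraries each). At 7 months Sgk3 had a log2 fold change of 0.73 (SE 0.16, adjusted p = 0.633 by edgeR and 0.0186 by DESeq2) with groups that did not overlap. Sgk2 had 1.37 ± 0.436 CPM under nicotine and 1.90 ± 0.382 CPM under saline at 7 months (SD, n = 3 libraries each), a log2 fold change of -0.47 (SE 0.29), and 0.06 (SE 0.22) at 18 months.

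Plin4 (chromosome 17, 56100591 to 56109803, minus strand) codes for a perilipin, a coat protein of lipid droplets. It had 23.7, 24.9 and 32.5 CPM in the 18-month nicotine libraries and 7.15, 11.2 and 13.1 CPM in the 18-month saline libraries. Under nicotine at 7 months it had 47.7, 67.9 and 45.2 CPM, and under saline 7.09, 6.72 and 6.32 CPM. At both ages every nicotine library was above every saline library, by a wide margin at 7 months. The log2 fold change was 1.35 (SE 0.20) at 18 months and 2.98 (SE 0.18) at 7 months. None of the other perilipin genes tested, 3 at 18 months and 4 at 7 months, was called by edgeR or by DESeq2, and 0 of them had an unadjusted p under 0.05 at either age.

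Hif3a (chromosome 7, 17031507 to 17062427, minus strand) codes for a hypoxia-inducible factor subunit, some isoforms of which inhibit the other subunits. It had 18.0, 21.7 and 21.0 CPM in the 18-month nicotine libraries and 6.08, 7.69 and 13.6 CPM in the 18-month saline libraries. The 7-month libraries held 15.4, 27.4 and 16.9 CPM under nicotine and 5.90, 3.65 and 5.72 CPM under saline. The groups did not overlap at either age, and 18-month saline library 3 was the saline library nearest to the nicotine group. Without it the log2 fold change at 18 months moved to 1.54, against 1.13 (SE 0.25) with all libraries, and at 7 months it was 1.95 (SE 0.28). The other 4 subunits, Hif1a, Epas1, Arnt and Arnt2, had log2 fold changes with nicotine of 0.03 to 0.06 at 18 months and -0.23 to -0.07 at 7 months.

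Xdh (chromosome 17, 73883895 to 73950196, minus strand) codes for xanthine dehydrogenase, which makes uric acid in purine breakdown. It had 20.9, 24.7 and 24.4 CPM in the 18-month nicotine libraries and 13.2, 14.7 and 18.1 CPM in the 18-month saline libraries. At 7 months it had 22.9, 39.0 and 28.4 CPM under nicotine and 9.77, 6.49 and 7.88 CPM under saline. The groups did not overlap at either age, and the 7-month difference was the wider, with log2 fold changes of 0.59 (SE 0.12) at 18 months and 1.89 (SE 0.23) at 7 months. Annotated Xdh transcripts share stretches of 276 to 463 nt, near-identical, with transcripts of 19 other genes, so its values are uncertain.

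Sult1a1 (chromosome 7, 126672865 to 126676432, minus strand) codes for a sulfotransferase that conjugates phenols and monoamines. It had 6.57, 7.18 and 7.99 CPM in the 18-month nicotine libraries and 3.98, 5.40 and 7.07 CPM in the 18-month saline libraries. Under nicotine at 7 months it had 16.9, 25.8 and 17.5 CPM, and under saline 11.0, 7.49 and 11.1 CPM. The groups overlapped at 18 months and were separate at 7 months. On the log2 scale nicotine over saline was 0.39 (SE 0.19) at 18 months and 1.01 (SE 0.22) at 7 months. Sult1a1 shares 61 nt of exon with Sgf29 on the other strand.

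**Figure D3:**
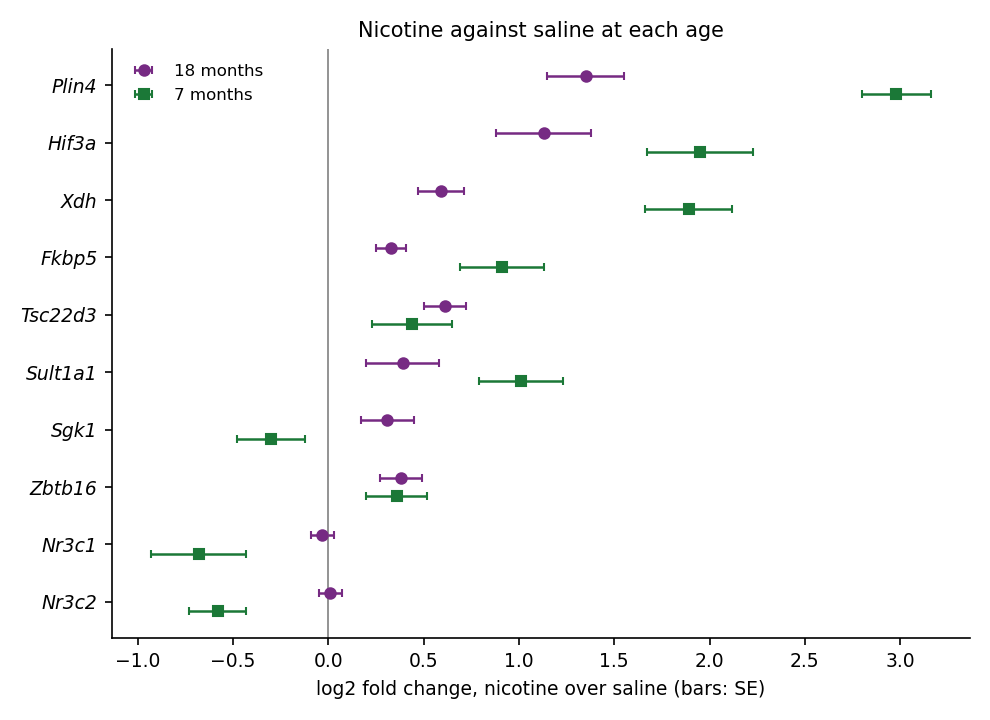
Log2 fold change of nicotine over saline for each gene (horizontal axis; bars are SE) at 18 months (circles) and 7 months (squares). Plin4 is farthest to the right at both ages, at 1.35 and 2.98. The receptor genes lie left of 0 at 7 months, at -0.68 for Nr3c1 and -0.58 for Nr3c2. At 18 months they lie near 0, at -0.03 for Nr3c1 and 0.01 for Nr3c2.

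By counts, all 3 nicotine libraries were above all 3 saline libraries for 6 of the 10 genes at 18 months, where 6.62% of all genes tested were separated in this way, and for 5 of the 10 genes at 7 months, where 9.03% were. They were below for 0 of the 10 genes at 18 months, against 5.15% of all genes, and for 2 of the 10 genes at 7 months, against 8.4%. With Benjamini-Hochberg adjustment at 0.05 over all genes, edgeR called 0 of the 10 genes at 18 months, where 0.044% of all genes were called. An unadjusted p under 0.05 was found for 7 of the 10 at that age, against 6.73% of all genes, and DESeq2 called 3 of the 10, against 0.313%. At 7 months edgeR called 1 of the 10, Plin4, where 0.0114% of all genes were called, and DESeq2 called 5 of the 10, against 0.472%. For the nicotine effect averaged over both ages edgeR called Plin4, Hif3a and Xdh, 3 of the 10, where 0.0365% of all genes were called, and DESeq2 called 6 of the 10, against 0.412%. The genes were chosen on these differences, and these counts are a description that supports nothing. The Plin4 call at 7 months was lost without nicotine library 1, saline library 2 or saline library 3 of that age, although its log2 fold change stayed between 2.94 and 3.06, against 2.98 with all libraries. Without nicotine library 3 or saline library 2 of the 18-month groups, the averaged effect was called for 1 gene.

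In some libraries most of the 8 target genes were the highest or the lowest of their group. How often this held among all genes is not given here. All 8 were highest in library 2 of the 7-month nicotine group, the library that had the lowest Nr3c1 value of all 12. In the 7-month saline group, library 2 was lowest for 6 of the 8 targets, or 7 with correction for length and GC content, and highest for Nr3c1. The highest values of the targets in that group were split, with 4 in library 1, 1 in library 2 and 3 in library 3. In the 18-month groups, 6 of 8 targets were lowest in nicotine library 1, while 3 were highest in nicotine library 2 and 5 in nicotine library 3. In the saline group of that age 7 of 8 targets were highest in library 3 and 6 of 8 lowest in library 1. Choroid plexus markers summed to 56.7 CPM in 7-month nicotine library 2, the lowest sum of the 6 libraries of that age, and pituitary markers to 2.09 CPM. That library also had the lowest oligodendrocyte sum of its age, 4040 CPM, and the highest sum of general neuron markers, 5190 CPM. The neuron markers, all 5 found, summed to 4190 to 5190 CPM in 7-month nicotine and 4250 to 4540 CPM in 7-month saline. Markers of oligodendrocytes, all 7 found, summed to 4040 to 5570 CPM in 7-month nicotine and 5490 to 6680 CPM in 7-month saline, those of astrocytes to 3950 to 4250 and 4150 to 4870 CPM and those of endothelial cells to 216 to 242 and 222 to 253 CPM. The part of these cell types in the results was not tested.

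How alike the patterns were was measured by Pearson's r of log2 CPM over the 12 libraries, with each age centred on its own mean. These libraries share the nicotine difference the genes were chosen on, so r is a description. For Plin4, r was 0.967 with Xdh, 0.954 with Hif3a, 0.909 with Sult1a1 and 0.879 with Fkbp5. It was 0.784 with Zbtb16 and 0.748 with Tsc22d3, -0.0719 with Sgk1, -0.685 with Nr3c1 and -0.757 with Nr3c2. Among 12603 other genes with a mean log2 CPM of at least 1, the 10 most like Plin4 were Galnt15 (r = 0.952), Ezr, Abcc4, Gjb6, Lhfp, Sgk3, Mertk, Pnpla7, Sdc4 and Htra1 (r = 0.912). The 10 most like Fkbp5 were Mkl1 (r = 0.98), Cdkn1a, Wbp1l, Kcng2, Ctla2a, Cmtm3, Gpd1, Smim3, Ptplb and Asic2 (r = 0.927). Cdkn1a and Gpd1 stand on the list of other glucocorticoid-induced genes, which held 20 genes, where 12603 genes were compared. That list was chosen with earlier results of these data known, so this supports nothing. Fkbp5 had r of 0.939 with Xdh and -0.878 with Nr3c1. All r are from values without correction for length and GC content. Over the 12 libraries, 7-month saline library 2, with its larger share of long transcripts, had the highest Nr3c1 (84.1 CPM) and the lowest Fkbp5 (53.0 CPM). Conversely, 7-month nicotine library 2 had the lowest Nr3c1 (30.5 CPM) and the highest Fkbp5 (159 CPM). How far r rests on such libraries was not tested. The gene nearest to Plin4, Galnt15, which codes for an enzyme that starts mucin-type glycosylation, had 6.69 ± 0.838 CPM under nicotine and 4.37 ± 1.06 CPM under saline at 18 months and 5.02 ± 1.49 CPM under nicotine and 1.75 ± 0.458 CPM under saline at 7 months (SD, n = 3 libraries each).

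The nicotine difference at 18 months minus that at 7 months contains the values on which the genes were chosen, so it too is a description. edgeR called 0 of the 10 genes for it, where 0.00522% of all genes were called. An unadjusted p under 0.05 was found for 6 of the 10, against 7.85% of all genes, and DESeq2 called 2, Plin4 and Xdh, against 0.188%. On the log2 scale it was -1.63 (SE 0.30) for Plin4, -1.29 (SE 0.28) for Xdh, 0.59 (SE 0.16) for Nr3c2 and 0.64 (SE 0.27) for Nr3c1. The spread between libraries was larger at 7 months, with a common dispersion of 0.00956 at 18 months and 0.0417 at 7 months.

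Age was compared in 3 ways. It cannot be told apart from the count table of a library or from any batch that goes with that table. The age difference averaged over both infusions, chosen after the data were seen, weighs nicotine and saline alike and so does not use the difference on which the genes were chosen. By this comparison 5 of the 10 genes were called, 3 higher and 2 lower at 18 months, where 66.9% of all 19171 genes tested were called. Zbtb16 rose by a log2 fold change of 1.12 (SE 0.10, adjusted p = 4.13e-06 by edgeR), with all 6 libraries at 18 months above all 6 libraries at 7 months. Nr3c2 (0.63, SE 0.08, adjusted p = 3.38e-05 by edgeR) and Nr3c1 (0.55, SE 0.13, adjusted p = 0.00308) also rose. Sult1a1 fell by 1.16 on the log2 scale (SE 0.16, adjusted p = 6.69e-05 by edgeR) and Tsc22d3 by 0.50 (SE 0.13, adjusted p = 0.00526).

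Plin4 (-0.17, SE 0.15), Hif3a (0.43, SE 0.21), Xdh (0.28, SE 0.14), Fkbp5 (-0.15, SE 0.13) and Sgk1 (-0.19, SE 0.13) were not called, with adjusted p of 0.0857 to 0.33 by edgeR. Xdh was called without 7-month nicotine library 2 (0.39, adjusted p = 0.0168) or 7-month saline library 1 (0.36, adjusted p = 0.0442 by edgeR). Hif3a was called without 7-month nicotine library 2 (0.58, adjusted p = 0.0233) or 18-month saline library 1 (0.54, adjusted p = 0.0358 by edgeR). With correction for transcript length and GC content 4 genes were called. Zbtb16 (0.95), Nr3c2 (0.25) and Sult1a1 (-0.71) kept their calls, Plin4 gained one (-0.40, adjusted p = 0.0459 by edgeR), and Nr3c1 (0.15, adjusted p = 0.143) and Tsc22d3 (-0.30, adjusted p = 0.055) lost theirs. The 6 libraries at 18 months stayed above the 6 libraries at 7 months for Zbtb16, and overlapped them for Nr3c2.

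**Figure D4:**
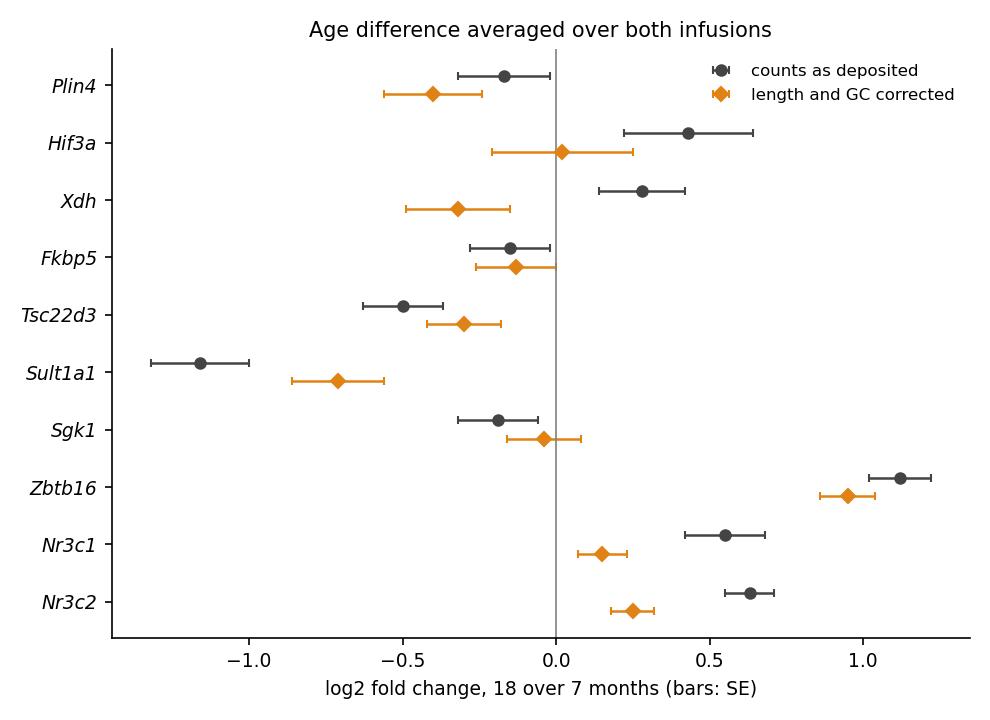
Log2 fold change of 18 over 7 months, averaged over both infusions, for each gene (horizontal axis; bars are SE) from the counts as deposited (circles) and with length and GC correction (diamonds). Zbtb16 lies at 1.12 and 0.95 and Sult1a1 at -1.16 and -0.71, while Nr3c1 lies at 0.55 as deposited and at 0.15 with the correction.

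Within an infusion, age shares its libraries with the nicotine differences. In nicotine mice edgeR called 5 of the 10 genes, with Zbtb16 (1.13, SE 0.14), Nr3c2 (0.92, SE 0.11) and Nr3c1 (0.87, SE 0.19) higher and Sult1a1 (-1.47, SE 0.23) and Plin4 (-0.99, SE 0.21) lower at 18 months, where 59.3% of all genes were called. With length and GC correction 6 of the 10 were called, with Xdh (-1.06, adjusted p = 0.00369 by edgeR) added to the same 5 genes. The corrected differences of Nr3c1 and Nr3c2 were 0.33 and 0.45. Nr3c1 lost its call with the replicate block added (0.34, adjusted p = 0.0838 by edgeR). The correction takes the longest transcript of a gene, for Xdh 7775 nt, where the mean of its transcripts is 1707.6 nt. In saline mice edgeR called 8 of the 10 genes by the counts as deposited, 5 higher and 3 lower, where 46.1% of all genes were called. Plin4 was thus lower with age under nicotine, by -0.99, and higher under saline, by 0.64 (SE 0.22) on the log2 scale. Of the 8 saline calls, Zbtb16 alone (0.97, adjusted p = 0.000244 by edgeR) was kept with correction for length and GC content. Leaving out 1 library at a time, 3 to 8 genes were called in saline mice, the fewest without 7-month saline library 1, and 4 each without 7-month saline library 3 or 18-month saline library 3.

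Levels between genes were compared per kb of the longest transcript, as a mean over the 12 libraries. Sgk1 was highest, at 44.2 CPM per kb, and was followed by Tsc22d3 (29.6), Nr3c2 (26.1), Zbtb16 (24.1) and Fkbp5 (21.7). Nr3c1 (9.64), Sult1a1 (7.79), Plin4 (4.25), Xdh (2.47) and Hif3a (2.12) were lower. Neighbours in this order overlapped in their ranges over libraries, except for Fkbp5 (13.7 to 41.3) and Nr3c1 (4.74 to 13.1). Nr3c2 was thus above Nr3c1 by this measure, in ranges that did not meet, 15.4 to 33.4 against 4.74 to 13.1 CPM per kb. The order differed between groups: Zbtb16 averaged 37.5 CPM per kb in 18-month nicotine, above Nr3c2 (31.8) and Tsc22d3 (30.0), and 13.2 in 7-month saline, below Fkbp5 (16.1). With the mean transcript length in place of the longest, 2 of the 10 genes kept their rank, and Plin4 was last.

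The wider list of other genes known to be induced by glucocorticoids held 20 genes, all of them measured. This list and the other wider lists were chosen with earlier results of these data known. Their counts are therefore a description and support nothing. Under nicotine 18 of the 20 had a log2 fold change above 0 at 18 months and 13 of the 20 at 7 months, with medians of 0.25 and 0.35, where the medians of all genes tested were 0.00 and -0.01. edgeR called none at either age. An unadjusted p under 0.05 was found for 13 of the 20 at 18 months, against 6.73% of all genes, and for 10 of the 20 at 7 months, against 6.5%. By DESeq2 3 of the 20 were called at each age, where 0.313% and 0.472% of all genes were called: Arrdc2, Errfi1 and Mt2 at 18 months and Lcn2, Mt2 and Per1 at 7 months. The metallothionein Mt2, a metal-binding protein, had 100, 110 and 99.7 CPM in the 18-month nicotine libraries and 82.5, 78.5 and 84.6 CPM in the 18-month saline libraries. At 7 months Mt2 had 205, 372 and 214 CPM under nicotine and 119, 51.1 and 132 CPM under saline. Mt2 groups were separate at both ages, and among the 7-month libraries nicotine library 2 was highest and saline library 2 lowest.

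Lcn2, which codes for the iron-binding lipocalin-2, had 2.03, 0.793 and 0.567 CPM under nicotine and 1.12, 0.315 and 0.317 CPM under saline at 18 months, and 1.63, 12.4 and 1.63 CPM under nicotine and 0.237, 0.272 and 0.411 CPM under saline at 7 months. Nicotine library 2 at 7 months stood far above all others, and the 7-month log2 fold change was 4.06 (SE 0.94, adjusted p = 0.651 by edgeR). Errfi1, a feedback inhibitor of growth factor receptors, had 64.5, 61.9 and 60.5 CPM under nicotine and 47.2, 44.4 and 51.0 CPM under saline at 18 months (log2 fold change 0.38, SE 0.06, adjusted p = 0.114 by edgeR) and a log2 fold change of -0.35 (SE 0.15) at 7 months. Cdkn1a, which codes for the cell cycle inhibitor p21, had log2 fold changes of 0.62 (SE 0.16) at 18 months and 1.16 (SE 0.34) at 7 months. Per1, a clock gene with a glucocorticoid response, was lower under nicotine at 7 months (-0.45, SE 0.10, adjusted p = 0.651 by edgeR), where it had 74.8, 73.9 and 73.0 CPM under nicotine and 95.8, 107 and 95.6 CPM under saline. Dusp1, a phosphatase gene named here after its values were seen, was at -0.53 (SE 0.19) at 18 months and -0.69 (SE 0.20) at 7 months.

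**Figure D5:**
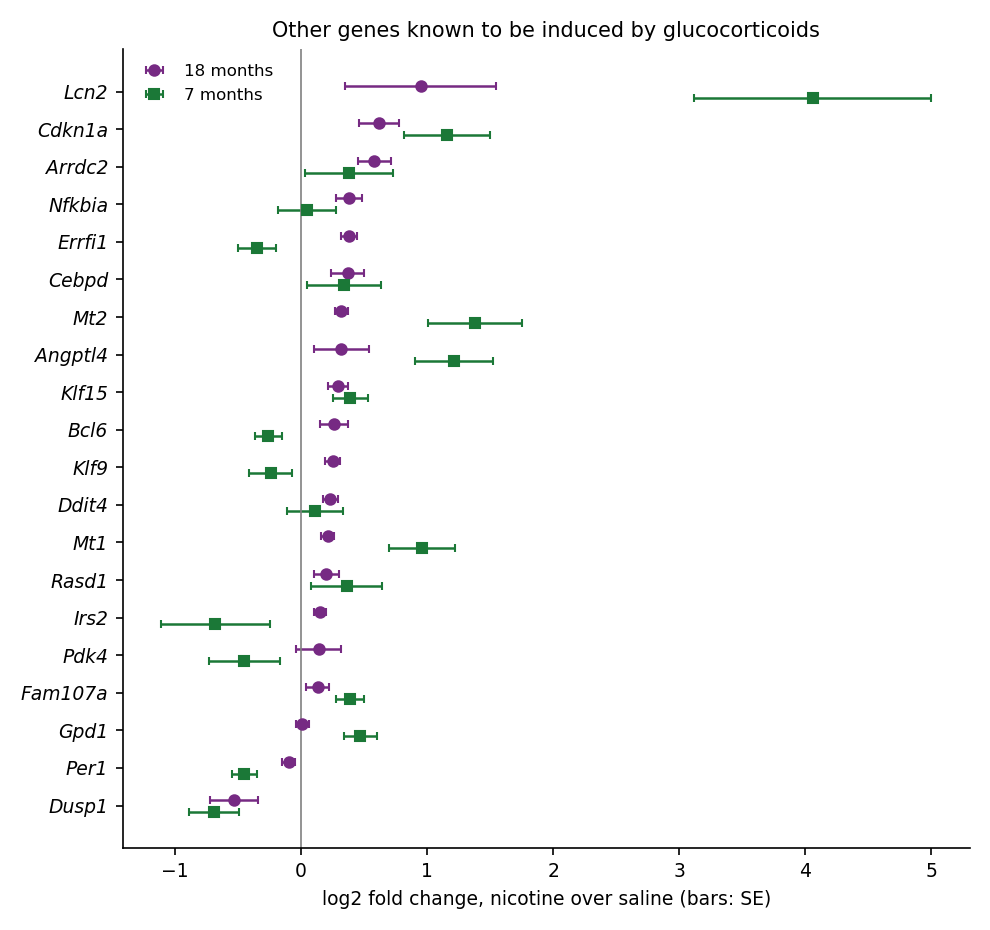
Log2 fold change of nicotine over saline for the 20 other glucocorticoid-induced genes (horizontal axis; bars are SE) at 18 months (circles) and 7 months (squares), in order of the 18-month value. At 18 months 18 of the 20 circles lie right of 0, and at 7 months 13 of the 20 squares do, with Lcn2 at 4.06.

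With age, averaged over both infusions, 14 of these 20 genes were called, 4 higher (Per1, Klf9, Bcl6 and Irs2) and 10 lower at 18 months. Per1 rose by 0.66 (SE 0.05, adjusted p = 1.68e-06 by edgeR), Klf9 by 0.93 (SE 0.09) and Irs2 by 1.75 (SE 0.23) on the log2 scale. Cdkn1a fell by 1.77 (SE 0.22, adjusted p = 2.94e-05 by edgeR). These age differences are without correction for length and GC content. In the 7-month saline libraries Irs2 had 14.9, 43.4 and 15.3 CPM and Klf9 had 69.8, 101 and 70.1 CPM. Both were highest in the library with the larger share of long transcripts. The share called, 14 of 20, is near the 66.9% of all genes.

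Of the 18 chaperones and cofactors of the receptors, none was called under nicotine by edgeR or DESeq2 at either age (3 at 18 months and 0 at 7 months at an unadjusted p under 0.05). By the counts as deposited, 9 cofactor genes rose with age, averaged over both infusions (among them Ncoa1, Ncor1, Crebbp, Ep300 and Nrip1). The 8 chaperone genes Hsp90aa1, Hsp90ab1, Ptges3, Fkbp4, Ppid, Stip1, Hspa8 and Bag1 fell. Without correction for length and GC content 17 of 18 were thus called, where 66.9% of all genes were. In the 7-month saline libraries Ep300 had 34.9, 79.8 and 37.0 CPM, highest in the library with the larger share of long transcripts. Crebbp, a histone acetyltransferase, had 177 ± 4.08 CPM under nicotine and 166 ± 9.35 CPM under saline at 18 months and 53.8 ± 2.78 CPM under nicotine and 56.4 ± 6.02 CPM under saline at 7 months (log2 fold change with age 1.64, SE 0.06, adjusted p = 1.14e-08 by edgeR; SD, n = 3 libraries each). Hspa8, the constitutive heat shock protein 70, had a log2 fold change with age of -1.10 (SE 0.10, adjusted p = 4.93e-06 by edgeR). With length and GC correction the age difference was 0.83 for Crebbp (adjusted p = 6.64e-07 by edgeR), 0.31 for Ncor1, against 1.01 without it, and -0.96 for Hspa8. Corrected values of the other genes on this list are not given here.

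Of 11 genes of glucocorticoid supply and metabolism 9 were tested, and none was called under nicotine by edgeR or DESeq2 (1 at 18 months and 2 at 7 months at an unadjusted p under 0.05). Hsd11b1, the enzyme that regenerates active glucocorticoid inside cells, had 18.1, 20.0 and 20.4 CPM under nicotine and 17.3, 16.5 and 15.7 CPM under saline at 18 months, and 23.7, 31.7 and 26.0 CPM under nicotine and 33.4, 22.9 and 33.5 CPM under saline at 7 months. It fell with age by 0.67 on the log2 scale (SE 0.11, adjusted p = 0.000146 by edgeR), a call lost with length and GC correction together with the replicate block (adjusted p = 0.0626). H6pd, which supplies the cofactor of that enzyme, rose by 0.76 (SE 0.10, adjusted p = 2.88e-05 by edgeR). Hsd11b2, which inactivates glucocorticoids, stayed under the filter on low counts, as did Il1b, Tnf, Ccl2 and Il6 among the inflammatory genes that glucocorticoids repress. None of the 6 inflammatory genes tested at 18 months or the 5 tested at 7 months was called under nicotine by edgeR or DESeq2 (1 and 0 at an unadjusted p under 0.05). Of 12 targets of hypoxia-inducible factors, none was called under nicotine by either tool (1 at 18 months and 3 at 7 months at an unadjusted p under 0.05). The 3 at 7 months were P4ha1 (-0.39, SE 0.11) and Egln3 (-0.52, SE 0.18), both hydroxylase genes and lower in all nicotine libraries, and Slc2a1. Slc2a1, the glucose transporter of the blood-brain barrier, had log2 fold changes of 0.38 (SE 0.12) at 18 months and 0.44 (SE 0.19) at 7 months.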

How the data were processed

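The deposited tables, one for each age, hold raw read counts per gene for 12 hippocampal libraries. Per the submitters' processing notes, TopHat and GRCm38 were used; the counting tool, annotation and strand setting are not given in the sources used here. The labels' protocols describe a small RNA kit, whereas the deposited counts cover messenger RNAs. The tables hold 44786 genes (18 months) and 44788 genes (7 months), 44760 of them shared. No 2 libraries had identical counts. Groups came from the labels, and the 10 genes and all gene lists were chosen with earlier results of these data known.

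The main test was the quasi-likelihood F-test of edgeR 4.0.16 (R 4.3.3), after filterByExpr and TMM scaling. A gene was called at 0.05 after Benjamini-Hochberg adjustment over all genes tested. Nicotine was tested in the 6 libraries of each age, and averages, differences and age in all 12. The age difference averaged over both infusions was added after seeing the data. A gene was separated where the 3 libraries of a group lay beyond all 3 of the other; an exact permutation test of 3 against 3 cannot go below a two-sided p of 0.1. DESeq2 1.42.0, no filter, transcript length and GC offsets (splines with 4 degrees of freedom, GENCODE M21), a replicate block and left-out libraries were alternatives. Length and GC content were those of the longest transcript of each gene. The fits were also run on counts simulated from each gene's own mean and spread. Such counts hold no length bias and no outlying library, so they cannot show how the fits deal with either. All 10 genes were named, and of each wider list up to 4 genes with the smallest p in a comparison. Likeness used log2 CPM with a prior count of 2. Transcript similarity was found with BLAST 2.17.0. Total counts of 21260068 to 29245972 per library limit precision for genes of few counts such as Lcn2.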

Additional observations from a re-analysis of the deposited data

How the results depend on the processing

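Counts are given as the 10 genes called, then all genes called. Libraries with another prefix are 7-month saline 1 and nicotine 1, whose shared description prefix differs from that of the other 7-month libraries. Nicotine at 18 months (0 and 8) gave 4 and 35 with no filter, 3 and 57 with DESeq2, 1 of the 10 with the replicate block, 5 genes with length and GC offsets with the block, and 0 genes with all 12 libraries; leaving out 1 library gave 0 to 1 and 5 to 21, the 1 being Hif3a without saline library 3 (adjusted p = 0.0113 by edgeR). Nicotine at 7 months (1 and 2) gave 3 and 6 with no filter, 5 and 83 with DESeq2, 1 gene with the block, 0 and 0 with offsets and block, 2 and 9 with all 12 libraries, 0 and 1 without saline 2 and nicotine 1, 5 genes without both libraries numbered 3, 0 and 0 without the libraries with another prefix, and 0 to 1 and 0 to 2 leaving out 1 library. The average (3 and 7) gave 6 and 79 with DESeq2, 15 genes with no filter, 1 and 3 with the block, 11 genes with offsets, 1 and 4 with offsets and block, 5 and 43 without 7-month saline 2 and nicotine 1, and 1 to 3 and 2 to 21 leaving out 1 library. The difference (0 and 1) gave 2 and 36 with DESeq2, 0 genes with the block, 6 without 7-month saline 2 and nicotine 1, 3 without those numbered 3, 2 without those with another prefix, and 0 to 0 and 0 to 3 leaving out 1 library.

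Age under nicotine (5 and 11368) gave 8 of the 10 without 7-month saline 2 and nicotine 1, 7364 genes with offsets, 6560 with offsets and block, and 5 to 7 and 10137 to 12688 leaving out 1 library. Age under saline (8 and 8844) gave 1 and 5534 with offsets, 1 and 4743 with offsets and block, 3 and 5350 in the 6 saline libraries alone, 3 and 5867 without those numbered 3, 2 and 5852 without those with another prefix, and 3 to 8 and 6251 to 11793 leaving out 1 library. Age averaged over both infusions (5 and 12833) gave 8192 genes with offsets and block. With offsets, without and with the block, Bnip3 reversed under nicotine to 0.02 and 0.02, and Plin2 to 0.12 and 0.13 under nicotine and to 0.09 and 0.10 averaged. The cause was not tested. With the mean transcript length 2 of the 10 genes kept their rank.

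Same-numbered libraries did not deviate together (r from -0.0976 to 0.0833), which with so few libraries cannot exclude pairing. The 7-month libraries numbered 1, which share a description prefix, had r = 0.0833. Whether the numbers pair libraries is not known, so the block is only an alternative.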
